A study of Mus musculus with 18 samples.

Results

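The iron-recycling macrophage genes described here are Spic, Cd163, Slc40a1, Hmox1, Vcam1, Slc11a1, Tfrc and Blvrb, 8 of the 22180 genes that the arrays measured through probes with a single gene symbol. Each of the 8 was read by 1 probe of the 33793 in the table of values, the probe annotated to its symbol alone. The genes were chosen by their known part in iron recycling and selected on their measured differences between macrophages with and without the CD103 gate, so that difference is given as a description and without a test. The series holds 18 Affymetrix expression arrays of sorted small-intestinal phagocytes, in 6 groups of 3 arrays.

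All 6 groups came from VDTR mice that received diphtheria toxin into the peritoneum at 2 ng/kg and were killed 4 hours later, and no group without toxin was analysed here. As background, VDTR mice express the toxin receptor linked to a green fluorescent protein, GFP, under the villin promoter, which drives expression in gut epithelium, so that toxin kills epithelial cells and GFP inside a phagocyte marks material taken up from them. Every cell was sorted as live, CD45+, CD11c+ and MHCII+. The GFP-plus and GFP-minus CD103 CD11b CD64 macrophages were CD103+, CD11b+ and CD64+. The GFP-plus and GFP-minus CD11b CD64 macrophages were CD11b+ and CD64+, and their labels state no CD103 gate. The GFP-plus and GFP-minus CD103 dendritic cells were CD103+ and CD24+. The labels list male and female mice and an n value of 4 for every array, give no age, and do not say what the n value counts or whether replicates came from separate mice, so each p-value below reflects the spread among these arrays, part of which may be technical.

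Macrophages of the spleen red pulp and liver recycle iron from old red blood cells. The receptor CD163 takes up hemoglobin bound to haptoglobin, heme oxygenase 1 (Hmox1) opens the heme ring and frees its iron, biliverdin reductase B (Blvrb) reduces biliverdin isomers and flavins, and ferroportin (Slc40a1) exports iron from the cell. NRAMP1 (Slc11a1) moves iron and other metals out of the phagosome, and the transferrin receptor (Tfrc) brings in iron bound to transferrin. SPI-C (Spic) is an ETS family transcription factor required for red pulp macrophages, which depend on it in mice for the adhesion molecule VCAM-1 (Vcam1).

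Values are log2, and each probe was deposited centred on its own median over the 18 arrays, so 0 is a gene's middle array, a difference of 1 is a doubling in base 2, and neither an absolute level nor a level set against another gene can be read. The base was inferred from the values. Pearson correlations between replicates of a group over all genes ran between 0.525 and 0.715 in dendritic cells and between -0.0897 and 0.564 in macrophages. The 4 arrays with the lowest estimated weight were replicate 1 of the GFP-plus CD103 CD11b CD64 macrophages, replicate 2 of the GFP-minus CD103 CD11b CD64 macrophages, replicate 1 of the GFP-minus CD11b CD64 macrophages and replicate 1 of the GFP-plus CD103 dendritic cells. The labelled cell types were compared by limma with Benjamini-Hochberg adjustment. In macrophages relative to dendritic cells, 10 of 11 measured macrophage core genes rose (median log2 difference 4.36), as did 6.91% of all genes. Of 14 measured dendritic cell genes, 10 fell (median -1.72), against 697 of all 22180 genes. These lists include genes of the sort itself, such as Itgam (CD11b) and Itgae (CD103), so part of this outcome was set by the sort.

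Among the 8 genes, Cd163, Spic and Vcam1 had the largest differences between CD103 CD11b CD64 and CD11b CD64 macrophages, each higher with the gate. The difference was above 0 for 5 of the 8, with a median of 0.17 over the 8 genes and -0.01 over all genes. The differences of the means over both GFP gates, with standard errors from the limma fit, were 3.50 ± 0.39 log2 units for Cd163 (11.3-fold), 2.33 ± 0.33 for Spic (5.03-fold) and 1.40 ± 0.18 for Vcam1 (2.64-fold). For the other 5 genes the difference lay between -0.56 ± 0.24 (Blvrb) and 0.18 ± 0.36 (Slc11a1). The means of the hemoglobin receptor, the transcription factor and the adhesion molecule thus lay further apart than those of the iron exporter, the heme and biliverdin enzymes, the transferrin receptor and the phagosomal transporter, although single arrays of Spic and Vcam1 overlapped over the gate.

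Cd163, the hemoglobin receptor, showed the widest gap. Its log2 values were 5.34, 4.30 and 4.27 in GFP-plus and 2.85, 0.63 and 3.79 in GFP-minus CD103 CD11b CD64 macrophages. They were 0.55, 0.38 and -0.13 in GFP-plus and -0.35, -0.12 and -0.14 in GFP-minus CD11b CD64 macrophages. All 6 arrays with the gate lay above all 6 without it, though replicate 2 of the GFP-minus cells, at 0.63, only just did. Over all genes, 74 of 22180 (0.334%) had 6 arrays with the gate that did not overlap the 6 without it, and Cd163 was the only 1 of the 8. In CD103 dendritic cells Cd163 read -0.09, -0.15 and 0.09 when GFP-plus and -0.45, -0.31 and -0.50 when GFP-minus, so CD11b CD64 macrophages overlapped dendritic cells at this gene.

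Spic, the red pulp macrophage factor, read 2.83, 3.04 and 1.96 in GFP-plus and 2.00, 2.92 and 1.54 in GFP-minus CD103 CD11b CD64 macrophages, against 1.62, -0.04 and 0.04 in GFP-plus and -1.19, 0.31 and -0.45 in GFP-minus CD11b CD64 macrophages. Replicate 1 of the GFP-plus CD11b CD64 macrophages, at 1.62, overlapped the lowest array with the gate, at 1.54. Within each GFP gate the difference over the CD103 gate was 2.07 ± 0.47 in GFP-plus and 2.59 ± 0.47 in GFP-minus cells, given without a test. Dendritic cells were lowest, with arrays between -1.95 and -1.60 for GFP-plus and between -1.87 and -1.75 for GFP-minus cells, and did not overlap any macrophage group.

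Vcam1, an adhesion molecule that binds the integrin VLA-4, read 1.88, 2.51 and 1.72 in GFP-plus and 0.99, 0.91 and 0.28 in GFP-minus CD103 CD11b CD64 macrophages. It read 0.35, 0.66 and 0.22 in GFP-plus and -0.22, -0.86 and -0.27 in GFP-minus CD11b CD64 macrophages. The order of the 4 macrophage groups was therefore GFP-plus with the gate, GFP-minus with the gate, GFP-plus without it and GFP-minus without it, and only the middle pair overlapped. The difference over the gate was 1.63 ± 0.25 in GFP-plus and 1.17 ± 0.25 in GFP-minus cells. Without the 4 arrays of lowest weight, the differences over the gate were 3.73 for Cd163, 1.90 for Spic and 1.45 for Vcam1.

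**Figure D1:**
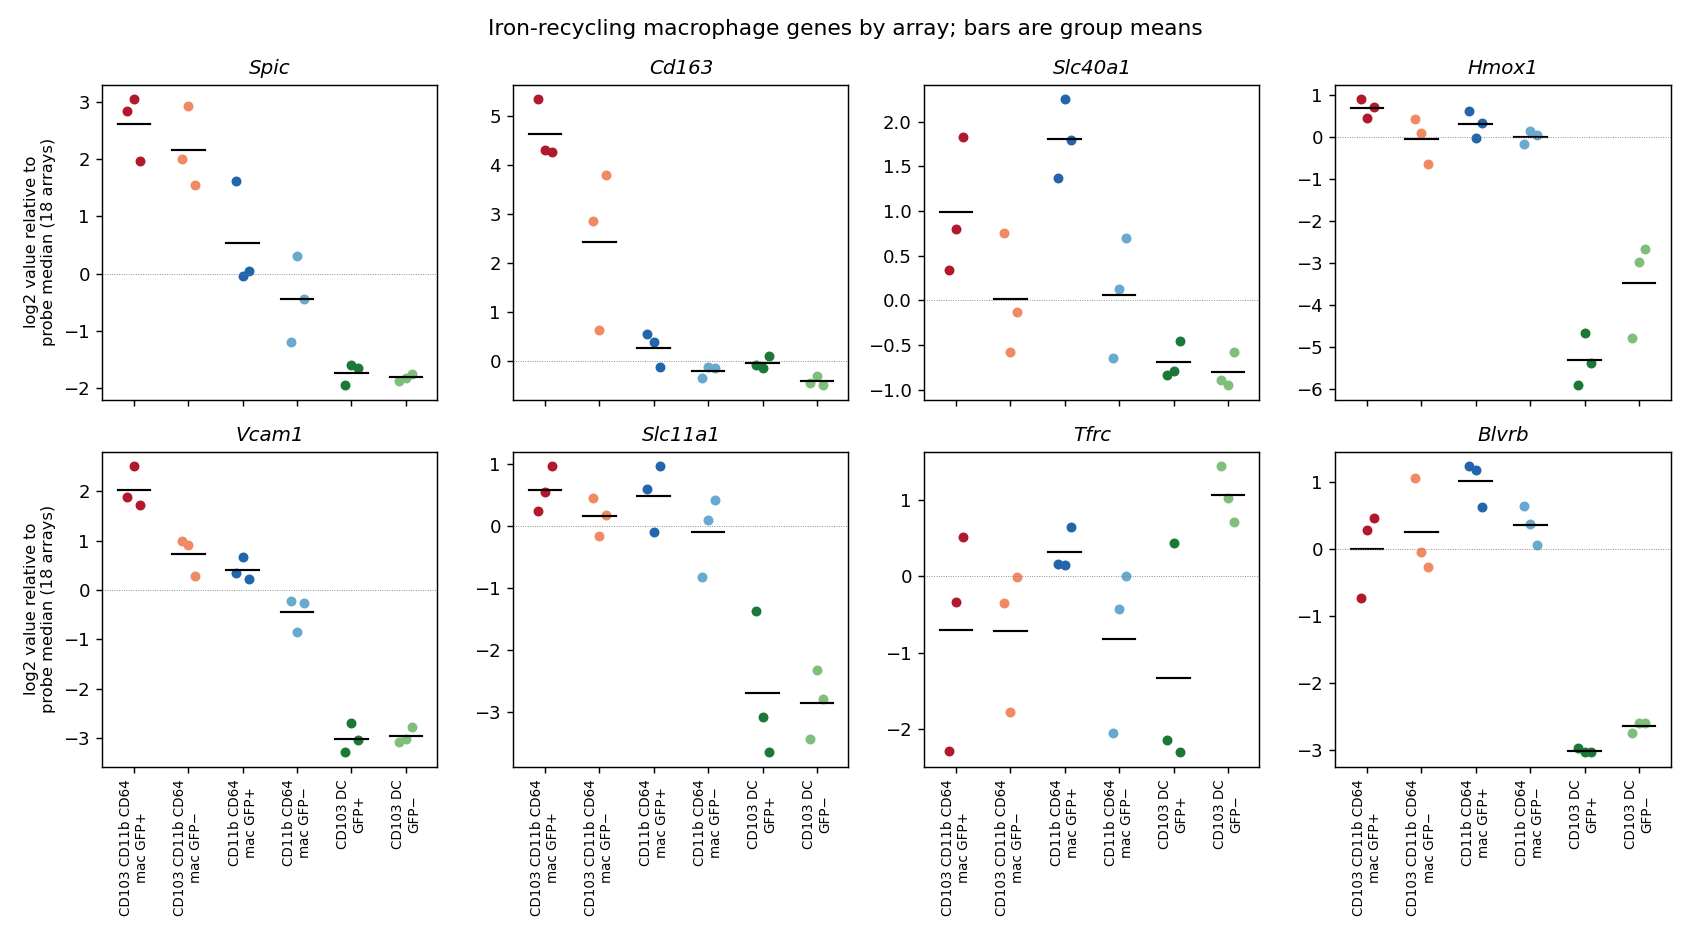
Log2 value relative to the probe's median over 18 arrays (vertical axis, a separate scale for each gene) in the 6 groups of 3 arrays (horizontal axis). Points are arrays and horizontal bars are group means. Spic, Cd163 and Vcam1 are highest in the CD103 CD11b CD64 macrophages, Hmox1, Slc11a1 and Blvrb are low in dendritic cells, and Tfrc is highest in GFP-minus dendritic cells.

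The region before the start site was examined for the genes with a RefSeq promoter entry, which were 5 of the 8. Spic and Cd163 were higher with the gate, while Slc11a1 differed by 0.18 ± 0.36 and Blvrb by -0.56 ± 0.24. The 250 bases before the annotated start of each of these genes are printed 5′ to 3′ on the gene's strand (RefSeq, GRCm38.p6), with motif matches in capitals. They lie at chr10:88683024-88683273 (Spic, minus strand), chr6:124304401-124304650 (Cd163, plus strand), chr1:74374953-74375202 (Slc11a1, plus strand) and chr7:27447728-27447977 (Blvrb, plus strand).
Spic: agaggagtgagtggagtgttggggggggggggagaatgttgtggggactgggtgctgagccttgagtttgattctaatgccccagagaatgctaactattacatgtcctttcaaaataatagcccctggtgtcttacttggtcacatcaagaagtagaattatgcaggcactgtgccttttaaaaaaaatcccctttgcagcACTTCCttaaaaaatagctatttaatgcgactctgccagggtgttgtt
Cd163: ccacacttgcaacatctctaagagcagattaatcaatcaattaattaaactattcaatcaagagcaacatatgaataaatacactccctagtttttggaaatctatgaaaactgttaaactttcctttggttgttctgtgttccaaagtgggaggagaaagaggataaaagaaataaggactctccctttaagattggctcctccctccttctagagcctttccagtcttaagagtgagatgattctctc
Slc11a1: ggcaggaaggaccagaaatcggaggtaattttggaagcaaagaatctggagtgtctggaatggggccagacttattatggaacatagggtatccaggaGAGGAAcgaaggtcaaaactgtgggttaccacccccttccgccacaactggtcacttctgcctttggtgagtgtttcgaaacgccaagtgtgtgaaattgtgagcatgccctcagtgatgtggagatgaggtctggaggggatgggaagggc
Blvrb: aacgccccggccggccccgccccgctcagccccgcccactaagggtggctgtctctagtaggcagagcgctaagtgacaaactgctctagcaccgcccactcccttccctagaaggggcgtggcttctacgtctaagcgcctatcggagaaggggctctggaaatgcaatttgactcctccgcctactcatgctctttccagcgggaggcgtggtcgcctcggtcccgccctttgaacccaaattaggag
The letters searched on both strands were GAGGAA, the core bound by the macrophage factor PU.1, GGAAGT, another ETS core, and TGACNNNGC, the antioxidant response element bound by NRF2. GAGGAA and GGAAGT can overlap each other. Slc11a1 held GAGGAA at 152 to 147 bases before its start. Spic held GGAAGT on the opposite strand, printed as ACTTCC, at 48 to 43 bases before its start. Tfrc, which has 2 annotated start sites and is not printed, held GGAAGT at 218 to 213 bases before its start site 2 and none of the 3 before start site 1. Cd163 and both annotated start sites of Blvrb, of which the first is printed, held none of the 3 in these windows, which says only that those letters are not there. Over 32851 RefSeq promoters of the same length, 23.3% held GAGGAA, 19.7% GGAAGT and 10.2% TGACNNNGC.

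Markers of other cells were read beside the gate difference. Itgae, which encodes CD103 itself, differed by 1.19 ± 0.46 log2 units over the gate (limma adjusted p = 0.79). Its arrays lay between -0.44 and 0.05 in GFP-plus and between -0.43 and 3.44 in GFP-minus CD103 CD11b CD64 macrophages. They lay between -0.44 and -0.29 in GFP-plus and between -0.53 and -0.05 in GFP-minus CD11b CD64 macrophages, and between 4.93 and 5.56 in dendritic cells. In the GFP-plus cells, Itgae transcript thus overlapped between macrophages sorted with and without CD103. Over all genes the gate difference was called for 16 of 22180 (0.0721%), 14 higher and 2 lower with the gate, and 1 of these was the granzyme gene Gzma, a product of cytotoxic lymphocytes (3.67 ± 0.33, adjusted p = 0.000287). Of 13 measured T and innate lymphocyte genes, 11 were above 0 in the gate difference, with a median of 1.42. In CD103 CD11b CD64 macrophages the mean of that list lay between -0.11 and 0.55 on the GFP-plus arrays and between 1.25 and 2.89 on the GFP-minus arrays. In CD11b CD64 macrophages it lay between -0.40 and -0.23 on the GFP-plus arrays and between -0.32 and 0.05 on the GFP-minus arrays. The list was highest in the GFP-minus cells with the gate. Spic, Cd163 and Vcam1 had their highest means in the GFP-plus cells with the gate, but for Spic these 2 groups overlapped (means 2.61 and 2.15). The gate difference was 2.07 in GFP-plus and 2.59 in GFP-minus cells for Spic. It was 4.37 and 2.63 for Cd163, and 1.63 and 1.17 for Vcam1. The list's part in the gate differences was not tested. No gene of the other marker lists was called over the gate, and their median differences were 0 for macrophage core, -0.08 for dendritic cell, 0 for monocyte, 0.08 for neutrophil, 0.01 for erythroid (6 of 15 genes measured), -0.02 for enterocyte, -0.07 for B and plasma cell and 0.14 for endothelial and stromal genes. In bulk RNA, fewer cells that express a gene and less of its RNA per cell cannot be told apart.

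**Figure D2:**
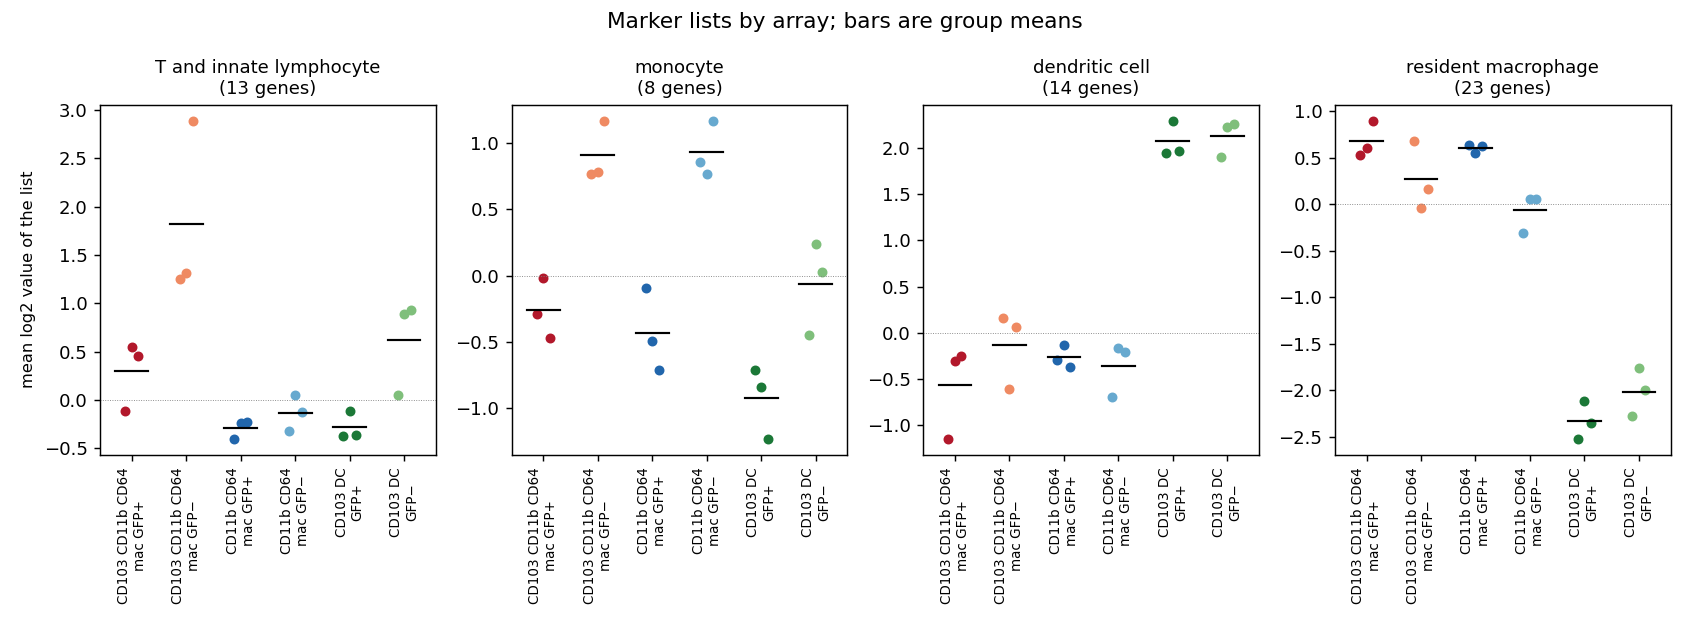
Mean log2 value of all measured genes of 4 marker lists (vertical axis, a separate scale for each list) in each array of the 6 groups (horizontal axis). Points are arrays and bars are group means. The lymphocyte list is highest in GFP-minus CD103 CD11b CD64 macrophages (1.25 to 2.89), and the monocyte list is lower in GFP-plus than in GFP-minus macrophages of both populations.

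Set against dendritic cells, 7 of the 8 genes rose in macrophages (mean of the 4 macrophage groups minus mean of both dendritic cell groups, limma over all 18 arrays and 22180 genes, adjusted p under 0.05). The genes passing in that direction were 6.91% of all genes tested. The median difference was 3.02 log2 units over the 8 genes and 0.03 over all genes. In 5 of the 8, namely Hmox1, Vcam1, Blvrb, Slc11a1 and Spic, the 12 macrophage arrays did not overlap the 6 dendritic cell arrays, as in 2.82% of all genes. This contrast is algebraically independent of the gate difference that the choice of genes used. A gene high only in macrophages with the gate raises it too, however. For Cd163, the difference from dendritic cells was 3.76 in CD103 CD11b CD64 and 0.26 in CD11b CD64 macrophages. The count of 7 is thus not free of the choice of genes, which are also known from other tissues as macrophage genes.

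Hmox1, the inducible heme oxygenase, differed most, by 4.63 ± 0.28 (24.7-fold, adjusted p = 2.56e-08). Its arrays read 0.89, 0.45 and 0.70 in GFP-plus and 0.43, 0.08 and -0.64 in GFP-minus CD103 CD11b CD64 macrophages. CD11b CD64 macrophages read 0.62, -0.04 and 0.33 when GFP-plus and -0.17, 0.13 and 0.04 when GFP-minus. The arrays read -5.91, -4.67 and -5.37 in GFP-plus and -4.78, -2.97 and -2.66 in GFP-minus dendritic cells. The 4 macrophage groups thus lay close together, and no dendritic cell array reached them.

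Blvrb, the biliverdin reductase, differed by 3.24 ± 0.21 (9.43-fold, adjusted p = 4.35e-08). It read -0.74, 0.28 and 0.46 in GFP-plus and 1.06, -0.05 and -0.28 in GFP-minus CD103 CD11b CD64 macrophages. The values were 1.23, 1.17 and 0.62 in GFP-plus and 0.64, 0.36 and 0.05 in GFP-minus CD11b CD64 macrophages, and -2.97, -3.04 and -3.04 in GFP-plus and -2.75, -2.60 and -2.61 in GFP-minus dendritic cells. Its difference over the gate was -1.0 ± 0.34 within GFP-plus and -0.11 ± 0.34 within GFP-minus macrophages, given without a test.

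Slc11a1, the phagosomal metal transporter, differed by 3.05 ± 0.31 (8.30-fold, adjusted p = 6.78e-06). Its values were 0.24, 0.54 and 0.96 in GFP-plus and 0.45, -0.17 and 0.17 in GFP-minus CD103 CD11b CD64 macrophages. They were 0.59, -0.10 and 0.96 in GFP-plus and -0.82, 0.10 and 0.41 in GFP-minus CD11b CD64 macrophages, and -1.38, -3.08 and -3.65 in GFP-plus and -3.44, -2.32 and -2.79 in GFP-minus dendritic cells. All 4 macrophage groups overlapped their neighbours in the order of levels, and no dendritic cell array reached them. For Vcam1 the difference was 3.67 ± 0.16 (12.7-fold, adjusted p = 3.84e-10), with dendritic cell arrays between -3.29 and -2.70 when GFP-plus and between -3.09 and -2.78 when GFP-minus, and for Spic it was 2.99 ± 0.29 (7.94-fold, adjusted p = 4.3e-06).

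Cd163 and Slc40a1 also rose but overlapped dendritic cells. The difference for Cd163 was 2.01 ± 0.34 (4.04-fold, adjusted p = 0.000966) and averages unequal populations: 3.76 ± 0.39 for CD103 CD11b CD64 macrophages minus dendritic cells, and 0.26 ± 0.39 for CD11b CD64 macrophages minus dendritic cells, given without a test. For Hmox1, Vcam1, Slc11a1, Blvrb and Spic the difference of CD11b CD64 macrophages from dendritic cells lay between 1.82 ± 0.33 (Spic) and 4.55 ± 0.33 (Hmox1), also without a test. Slc40a1, which encodes ferroportin, differed by 1.47 ± 0.25 (2.76-fold, adjusted p = 0.00127). It read -0.83, -0.79 and -0.45 in GFP-plus and -0.89, -0.95 and -0.58 in GFP-minus dendritic cells, and only the GFP-plus macrophages of both populations were above 0 in all 3 arrays.

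Tfrc, the transferrin receptor, was the 1 gene of the 8 that did not pass (-0.34 ± 0.49, 95% interval -1.39 to 0.70, adjusted p = 0.775). Its SD within a group reached 1.54. Its arrays read -2.28, -0.34 and 0.51 in GFP-plus and -0.35, -1.78 and -0.01 in GFP-minus CD103 CD11b CD64 macrophages. The readings were 0.16, 0.15 and 0.64 in GFP-plus and -2.05, -0.43 and 0.01 in GFP-minus CD11b CD64 macrophages, and -2.14, 0.44 and -2.30 in GFP-plus and 1.44, 1.03 and 0.71 in GFP-minus dendritic cells. The GFP-minus dendritic cells were the highest group and overlapped no other, while each of the others overlapped its neighbour in the order of means. Without replicate 2 of the GFP-plus dendritic cells, the difference between macrophages and dendritic cells turned to 0.10 (adjusted p = 0.933).

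**Figure D3:**
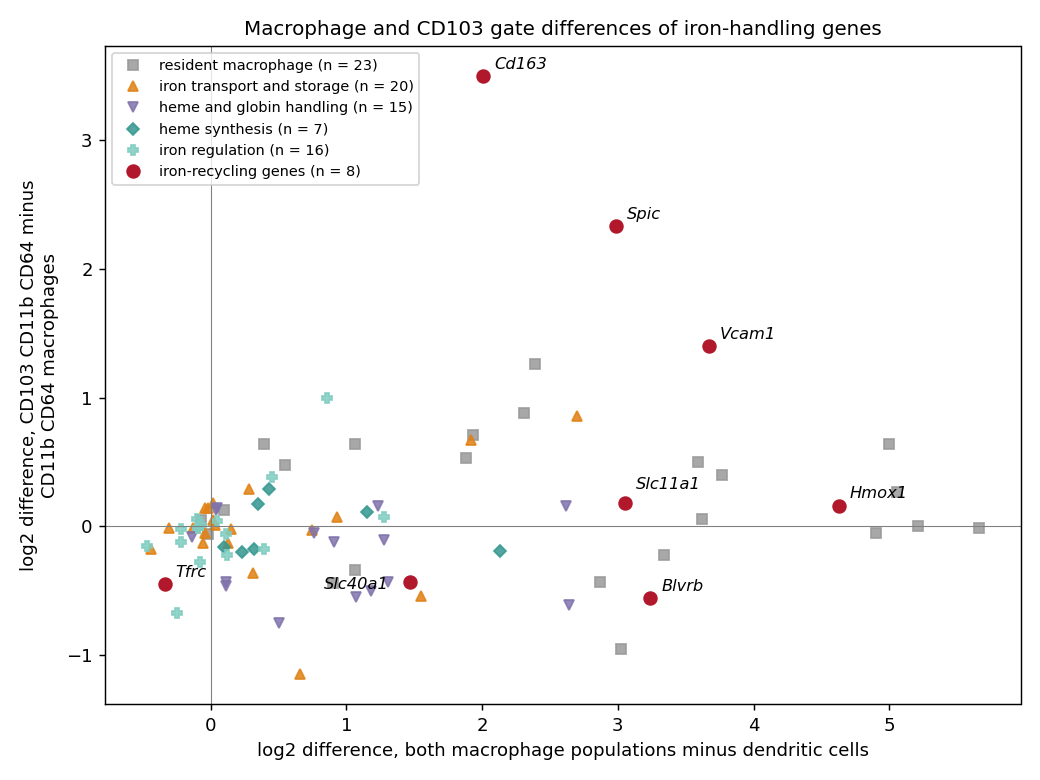
Log2 difference of both macrophage populations minus dendritic cells (horizontal axis) against the log2 difference of CD103 CD11b CD64 minus CD11b CD64 macrophages (vertical axis). Each point is a gene, with the 8 iron-recycling genes as labelled red circles and other iron, heme and resident macrophage genes by list. Cd163, Spic and Vcam1 lie above the rest on the vertical axis, at 3.50, 2.33 and 1.40, while Hmox1 (0.16) and Slc11a1 (0.18) are far right and near 0 on it and Blvrb, also far right, lies at -0.56. The 8 genes were selected on the difference of the vertical axis, so their place on it is a description.

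GFP-plus and GFP-minus cells were then compared within each population. None of the 8 genes passed the adjusted threshold in any of the 3 populations by limma, where 0.0541% of all genes did in CD103 CD11b CD64 macrophages, 0.0271% in CD11b CD64 macrophages and 1.58% in CD103 dendritic cells. At an unadjusted p under 0.05 the counts were 3 of 8 (9.20% of all genes), 2 of 8 (6.16%) and 2 of 8 (15.4%) in the same order of populations. The median difference of the 8 genes was 0.59, 0.76 and 0.01, against 0.02, 0.01 and -0.02 over all genes. The difference was above 0 for 7 genes in CD103 CD11b CD64 macrophages, 8 in CD11b CD64 macrophages and 4 in dendritic cells.

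In CD103 CD11b CD64 macrophages the smallest adjusted p was that of Vcam1, at 1.31 ± 0.25 log2 units (2.48-fold, adjusted p = 0.0842), followed by Cd163 at 2.21 ± 0.55 (4.64-fold, adjusted p = 0.168) and Slc40a1 at 0.98 ± 0.42 (adjusted p = 0.483). The Cd163 difference depended on single arrays: it was 2.90 without replicate 3 of the GFP-minus cells, where it passed (adjusted p = 0.0363), 1.32 without their replicate 2 (adjusted p = 0.196), and 0.96 without the 4 arrays of lowest weight (adjusted p = 0.273). Fitting only the arrays compared left it at 2.21 with adjusted p = 0.604. Vcam1 passed after quantile normalization (1.75, adjusted p = 0.019) or with array weights (1.44, adjusted p = 0.0435), and its adjusted p was 0.404 when only the arrays compared were fitted. The Slc40a1 difference was 0.56 without replicate 3 of the GFP-plus cells (adjusted p = 0.749). The GFP-plus arrays of Vcam1, Cd163 and Hmox1 lay above all GFP-minus arrays, a separation in either direction that 13% of all genes showed. Slc40a1 overlapped, with 0.34, 0.80 and 1.83 in GFP-plus and 0.75, -0.58 and -0.13 in GFP-minus cells.

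In CD11b CD64 macrophages Slc40a1 showed the largest difference, 1.74 ± 0.42 (3.33-fold, adjusted p = 0.37), with 1.37, 2.25 and 1.79 in GFP-plus and -0.64, 0.13 and 0.70 in GFP-minus cells. The GFP-plus CD11b CD64 macrophages held the highest group mean of this iron exporter among the 6 groups, at 1.80 ± 0.44 (SD, n = 3), which overlapped the 0.99 ± 0.76 of GFP-plus CD103 CD11b CD64 macrophages. Vcam1 differed by 0.86 ± 0.25 (adjusted p = 0.529) and Spic by 0.98 ± 0.47 (adjusted p = 0.818). The groups did not overlap for Slc40a1, Vcam1 and Tfrc, as for 15.9% of all genes.

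In dendritic cells 2 genes had an unadjusted p under 0.05, both lower in GFP-plus cells. Hmox1 differed by -1.85 ± 0.46 (3.60-fold, adjusted p = 0.0634) and Tfrc by -2.39 ± 0.80 (5.25-fold, adjusted p = 0.154). The Hmox1 arrays overlapped, since GFP-minus replicate 1, at -4.78, lay below the highest GFP-plus array, at -4.67, and without that GFP-minus replicate the difference was -2.50 (adjusted p = 0.00265). Without GFP-plus replicate 2, Hmox1 (-2.17) and Tfrc (-3.28) both passed, each with adjusted p = 0.0343. The differences were smaller after quantile normalization, at -0.77 for Hmox1 (adjusted p = 0.461) and -1.51 for Tfrc (adjusted p = 0.392), and Hmox1 was at -1.44 without GFP-minus replicate 3 (adjusted p = 0.218). The Tfrc arrays did not overlap. Groups lay apart for 3 of the 8 genes, Tfrc, Cd163 and Blvrb, against 20.1% of all genes. The remaining members differed less: Blvrb by -0.36, Vcam1 by -0.05, Spic by 0.08, Slc40a1 by 0.12, Slc11a1 by 0.15 and Cd163 by 0.37. Among macrophage core genes, 10 of 11 were below 0 in GFP-plus relative to GFP-minus dendritic cells, with a median of -0.69. Lyz2, which encodes lysozyme, fell (-0.92, adjusted p = 0.0378). The mean of that list lay between -3.88 and -3.77 on the GFP-plus arrays and between -3.44 and -3.07 on the GFP-minus arrays. Of 13 lymphocyte genes 11 were below 0, with a median of -0.81, and Gzma fell (-3.87, adjusted p = 0.000978). The lymphocyte list averaged between -0.37 and -0.11 on the GFP-plus arrays and between 0.05 and 0.93 on the GFP-minus arrays. The part of these markers in the dendritic cell differences was not tested.

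Averaged over both macrophage populations, a comparison added after the values had been seen, the difference between GFP-plus and GFP-minus cells was above 0 for all 8 genes and passed for Vcam1 alone (1.08 ± 0.18, 2.12-fold, adjusted p = 0.0259), where 0.415% of all genes passed. The call on Vcam1 was lost when only the 12 macrophage arrays were fitted (adjusted p = 0.0752), without the 4 arrays of lowest weight (0.059), or without any 1 of the 3 GFP-plus CD11b CD64 macrophage replicates or replicate 2 of the GFP-minus CD11b CD64 macrophages (0.0551 to 0.0754). Slc40a1 followed at 1.36 ± 0.29 (adjusted p = 0.0701) and passed without replicate 1 of the GFP-plus CD103 CD11b CD64 macrophages (0.0372) or replicate 3 of the GFP-minus CD11b CD64 macrophages (0.0222). Cd163, at 1.34 ± 0.39 (adjusted p = 0.157), passed without replicate 3 of the GFP-minus CD103 CD11b CD64 macrophages (1.68, adjusted p = 0.0338), but was 0.89 without replicate 2 of that group (adjusted p = 0.141) and 0.68 without the 4 arrays of lowest weight (adjusted p = 0.211). Monocyte genes moved the other way: of 8 measured, 4 fell in GFP-plus macrophages, with a median of -1.60, among them Plac8 (-3.16, adjusted p = 0.00209), Ccr2, the chemokine receptor of blood monocytes (-2.14, adjusted p = 0.0391), and S100a4 (-2.18, adjusted p = 0.046). The monocyte list averaged between -0.47 and -0.02 on GFP-plus arrays of CD103 CD11b CD64 macrophages and between 0.77 and 1.17 on their GFP-minus arrays. In CD11b CD64 macrophages its mean lay between -0.71 and -0.09 on GFP-plus arrays and between 0.77 and 1.17 on GFP-minus arrays. Of 13 measured lymphocyte genes, 12 were below 0 in this comparison, and Cd7 fell (-2.00, adjusted p = 0.0477). The part of these markers in the GFP differences of the 8 genes was not tested.

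**Figure D4:**
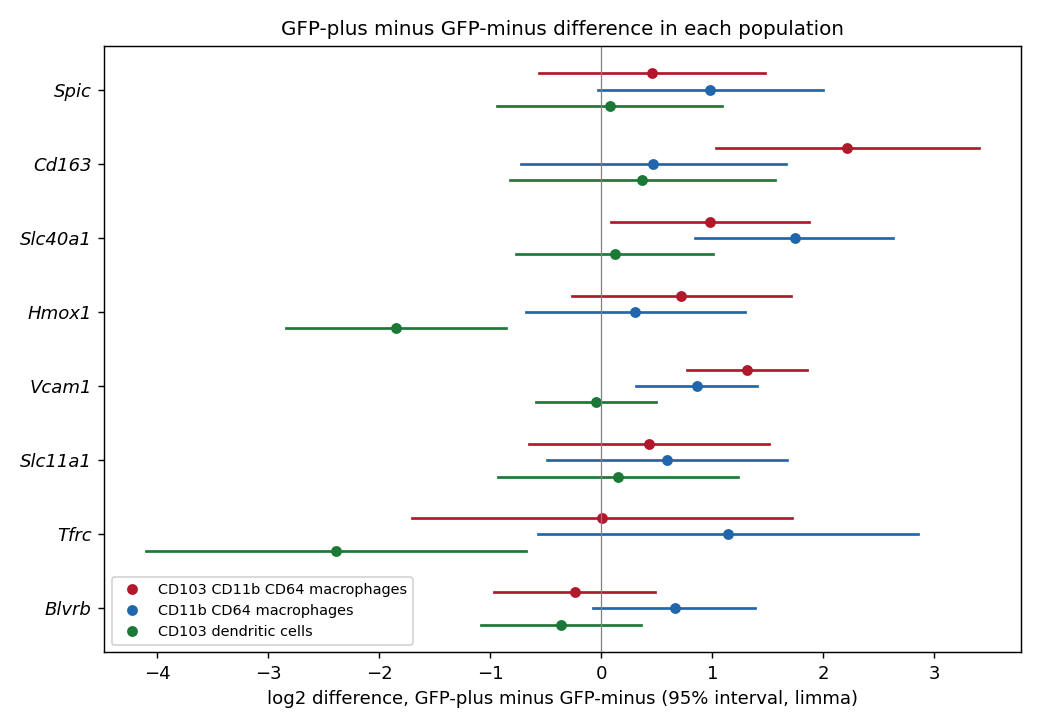
Log2 difference of GFP-plus minus GFP-minus cells (horizontal axis) for the 8 genes (rows) in CD103 CD11b CD64 macrophages, CD11b CD64 macrophages and CD103 dendritic cells. Points are limma estimates and lines their 95% intervals, before adjustment for the 22180 genes tested. All macrophage estimates lie above 0 except that of Blvrb in CD103 CD11b CD64 macrophages, while Hmox1 and Tfrc lie below 0 in dendritic cells, at -1.85 and -2.39.

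Whether the gate difference itself depended on GFP was tested as an interaction, and none of the 8 genes passed (limma adjusted p = 1 for each), as was so for all genes tested (0%), with 1 of the 8 and 3.76% of all genes at an unadjusted p under 0.05. That gene was Cd163, whose difference over the gate was 4.37 in GFP-plus and 2.63 in GFP-minus cells, an interaction of 1.74 ± 0.78 (unadjusted p = 0.0429, adjusted p = 1). Without replicate 2 of the GFP-minus CD103 CD11b CD64 macrophages, which at 0.63 was the lowest Cd163 array with the gate and was among the 4 of lowest weight, the interaction was 0.84, and without all 4 of those arrays it was 0.57. The 95% intervals of the interaction were -1.96 to 0.91 for Spic and -0.32 to 1.22 for Vcam1, and effects inside these bounds could not be told from 0 with 3 arrays a group.

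Other genes of iron and heme handling were read from lists. Over the gate, where 0.0721% of all genes passed, no gene passed among 20 measured of iron transport and storage, 15 of heme and globin handling, 7 of heme synthesis, 16 of iron regulation and 23 of resident macrophages. The smallest p in the first list belonged to Ncoa4, the receptor that sends ferritin to lysosomes (-1.15, adjusted p = 0.669), and to Cp, which encodes the ferroxidase ceruloplasmin (0.86, adjusted p = 0.857). Among resident macrophage genes, Mrc1, the mannose receptor, differed by 0.64 (adjusted p = 0.215), Nr1h3, which encodes the LXR alpha receptor needed for splenic marginal zone macrophages in mice, by -0.95 (adjusted p = 0.304), and Gas6, a ligand for apoptotic cell receptors, by 1.26 (adjusted p = 0.415).

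In macrophages relative to dendritic cells, 4 of 20 iron transport and storage genes rose and none fell: Fth1, the ferritin heavy chain (0.75, adjusted p = 1.96e-06), Cp (2.70, adjusted p = 3.79e-05), Slc11a2, the iron transporter DMT1 (1.92, adjusted p = 0.000677), and Slc25a28, a mitochondrial iron carrier (0.93, adjusted p = 0.0319). Of 15 heme and globin handling genes 7 rose, with the smallest p for Abcg2, an exporter that carries heme and porphyrins (1.28), Lrp1, the receptor for heme bound to hemopexin (2.62), Hebp1, a heme-binding protein (2.64), and Nfe2l2, which encodes the Hmox1 activator NRF2 (0.91). Alas1, the first enzyme of heme synthesis outside red cells, rose by 2.13 (adjusted p = 1.11e-05), the only 1 of 7 synthesis genes, and Aco1, whose protein is an iron regulatory protein, rose by 1.28 (adjusted p = 0.00608), the only 1 of 16 regulators. Of 23 resident macrophage genes 16 rose, led by Mrc1 (5.0), Adgre1 (5.06), Stab1 (3.77) and C1qa (5.66). Over all genes 6.91% rose, and the median difference was 0.08 for iron transport and storage, 0.91 for heme and globin handling, 0.35 for heme synthesis, -0.07 for iron regulation (9 of 16 genes below 0) and 2.39 for resident macrophage genes.

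Between GFP-plus and GFP-minus cells, in the mean over both macrophage populations, 1 of 15 heme and globin handling genes and 2 of 23 resident macrophage genes rose, no gene of the other 3 lists passed, and 0.415% of all genes passed. Abcg2 rose (1.09, adjusted p = 0.0179), as did Mertk, a receptor for apoptotic cells (1.76, adjusted p = 0.0259), and Stab1, a scavenger receptor (0.90, adjusted p = 0.0476), while Cp (1.62, adjusted p = 0.0772) and Timd4, a phosphatidylserine receptor (2.88, adjusted p = 0.0744), did not pass. In dendritic cells 1 of 20 iron transport and storage genes, Slc25a28, fell (-1.93, adjusted p = 0.037), as did 1 of 23 resident macrophage genes, C1qa (-1.53, adjusted p = 0.0452), where 1.58% of all genes passed.

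The genes most like each member over the 18 arrays are given with Pearson's r as a description. The arrays form a macrophage and a dendritic cell cluster, which raises r between genes that differ between the clusters in the same direction. They were Susd1 (0.915), Vcam1 (0.913) and Abca9 (0.908) for Spic, Kitl (0.897), C4b (0.887) and Chp2 (0.882) for Cd163, and Abca9 (0.971), Hpgd (0.968) and Dab2 (0.967) for Vcam1. For Slc40a1 they were Fmn1 (0.948), Gpnmb (0.946) and Cd4 (0.941), for Hmox1 Plau (0.986), for Slc11a1 Selenop (0.962), for Blvrb Apoc2 (0.980) and for Tfrc Rnf123 (0.934). Among all genes, only Susd1 was thus more like Spic than Vcam1 was over the 18 arrays. Over the 12 macrophage arrays the genes most like Spic were Ccl4 (0.929), Abca9 (0.926) and Slamf7 (0.903), and Vcam1 had 0.784. Spic and Vcam1 were both selected on the gate difference.

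Over the 12 macrophage arrays alone, Spic, Cd163 and Vcam1 varied together, with r of 0.747 for Spic and Cd163 (Spearman's rho 0.853, r 0.680 without the 2 arrays farthest from the median), 0.784 for Spic and Vcam1 (rho 0.818, r 0.742) and 0.808 for Cd163 and Vcam1 (rho 0.867, r 0.684). The gate difference on which these genes were selected enters these values, and for deviations from the group means the same pairs had r of -0.263, 0.0750 and -0.377. Slc40a1, Slc11a1 and Tfrc, whose 3 pairs are described after the values of all pairs of members were seen, had r of 0.657 for Slc40a1 and Slc11a1, 0.746 for Slc40a1 and Tfrc and 0.702 for Slc11a1 and Tfrc, and r of 0.593, 0.788 and 0.781 for the deviations. All 3 genes were at their group's lowest value on replicate 1 of the GFP-plus CD103 CD11b CD64 macrophages, replicate 2 of the GFP-minus CD103 CD11b CD64 macrophages and replicate 1 of the GFP-minus CD11b CD64 macrophages, which are the 3 macrophage arrays among the 4 of lowest weight. Over the other 9 macrophage arrays, a choice made after the values had been seen, the r was 0.345, 0.698 and 0.593 for the 3 pairs, and 0.105, 0.407 and 0.607 for the deviations. Over those 9 arrays the r was 0.86 for Spic and Cd163, 0.789 for Spic and Vcam1 and 0.785 for Cd163 and Vcam1. For their deviations it was 0.186, 0.172 and -0.309. For Hmox1 and Blvrb the r was 0.0566 over the 12 macrophage arrays, 0.552 over those 9 and 0.920 over all 18. The arrays of a group share their sort and processing, the pairs share the same arrays, and no p is given.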

How the data were processed

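RNA of 18 sorts was amplified by the NuGEN Ovation Pico method, biotin-labelled and hybridised, per the labels' protocols. The authors deposited 1 table of log2 values, each probe centred on its median over the 18 arrays (all 33793 medians within 1e-05 of 0). Base 2 is an inference from a probe spanning up to 10.15 units. The authors' summarisation software, normalization and build were not given in the sources used here. The values were used as deposited. Centring removed signal over background, so detection could not be judged, and the number of arrays limits the precision.

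Probes with 1 symbol in the platform annotation (23521, against 1814 with several and 8458 with none) were averaged per gene, leaving 22180 genes. limma 3.58.1 in R 4.3.3 fitted the 6 group means over all 18 arrays (12 residual degrees of freedom), with empirical Bayes variances and Benjamini-Hochberg adjustment over all genes at a threshold of 0.05. The script was tested on simulated data. Text after ± is the standard error of the fit unless marked SD. For each gene it rests on a single spread shared by all groups, although the spread within groups could be unequal, as for Cd163. Groups were taken from the sample titles. The 8 genes and the 14 other lists were chosen with earlier results of these data known.

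The named genes are all 8 members in every comparison, up to 4 genes of smallest p in each iron, heme and resident macrophage list, up to 3 in each marker list, the genes of the sort, and for each member the most correlated genes, up to 3. The alternatives were quantile normalization, only the arrays compared, array weights, leaving out the 4 arrays of lowest weight, the replicate number as a block, robust variances, each probe alone, and leaving out each array.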

Additional observations from a re-analysis of the deposited data

How the results depend on the processing

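The 7 of 8 genes that rose in macrophages relative to dendritic cells passed under every alternative run, and no difference over the CD103 gate moved by more than the spread between replicates. Fitting only the arrays compared was not run for macrophages against dendritic cells, which uses all 18 arrays. Between GFP-plus and GFP-minus CD103 CD11b CD64 macrophages, 1 of the 8 genes (Vcam1) passed instead of 0 after quantile normalization and 1 with array weights, and 0 to 1 when single arrays were left out. In CD103 dendritic cells 1 passed with array weights (Hmox1) and 0 to 2 when single arrays were left out. In the mean over both macrophage populations, 2 passed after quantile normalization and 2 with array weights (Vcam1 and Slc40a1), 0 when only the arrays compared were fitted, 0 without the 4 arrays of lowest weight, and 0 to 2 when single arrays were left out. The cause of these shifts was not tested. Among differences that had not passed, some changed sign. For GFP in dendritic cells, Vcam1 turned to 0.39 and Blvrb to 0.26 after quantile normalization, Slc11a1 to -0.22 with array weights, and Vcam1 to 0.09 and Slc11a1 to -0.51 without the 4 arrays of lowest weight, where the interaction of gate and GFP turned to 0.12 for Spic and 0.21 for Slc11a1. Leaving out single arrays gave a range from -0.60 to 0.80 for Tfrc and from -0.50 to 0.17 for Blvrb (GFP, CD103 CD11b CD64 macrophages), from -0.21 to 0.09 for Vcam1 and from -0.51 to 0.62 for Slc11a1 (GFP, dendritic cells), from -0.45 to 0.20 for Slc11a1 and from -0.90 to 0.02 for Spic (interaction), and from -0.59 to 0.10 for Tfrc (macrophages against dendritic cells).

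Counts over all genes moved more. For GFP in CD103 CD11b CD64 macrophages they were 12 (6 higher, 6 lower), 62 after quantile normalization (20 higher, 42 lower), 0 with only the arrays compared, 95 with array weights and 30 without the 4 arrays of lowest weight, and 11 to 60 leaving out single arrays. For CD11b CD64 macrophages they were 6, 22 after quantile normalization and 53 with array weights, and 0 to 34 leaving out single arrays. For dendritic cells they were 351 (72 higher, 279 lower), 48 after quantile normalization (24 higher, 24 lower) and 85 with only the arrays compared, and 118 to 711 leaving out single arrays. For the mean over both macrophage populations they were 92, 317 after quantile normalization, 9 with only the arrays compared and 654 with array weights (498 higher, 156 lower, against 53 higher, 39 lower), and 18 to 435 leaving out single arrays. Over the gate they were 16 (14 higher, 2 lower), 33 after quantile normalization (25 higher, 8 lower), 3 with only the arrays compared and 29 with array weights, and 11 to 42 leaving out single arrays.

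Replicate numbers are shared by the groups. Arrays with the same number deviated together (r over 0.1, a chosen cut) in 2 of 9 pairs of GFP-plus and GFP-minus groups, with r between -0.138 and 0.248. The numbers were not taken to pair the samples, which does not show that the samples are unpaired. An array correlated best with its own number in 6 of the 9. With the replicate number as a block the counts of the 8 genes that passed were 7 for macrophages against dendritic cells, 1 for the mean over both macrophage populations and 0 for the other comparisons, as without it. Over all genes, the block gave 151 calls in place of 92 for the mean over both macrophage populations. It gave 411 in place of 351 for GFP in dendritic cells, and 14 in place of 16 over the gate.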
